A study of Homo sapiens with 4 samples.

Results

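Heparan sulfate proteoglycans were followed through the 10 core proteins that carry the chains in HGC-27 cells: the syndecans SDC1, SDC2, SDC3 and SDC4, the glypicans GPC1, GPC2, GPC3, GPC4 and GPC6, and perlecan (HSPG2). They were chosen by gene symbol from the 25559 symbols in the count tables, and 9 of the 10 were among the 12967 genes with enough counts to be tested. GPC3 was not. HGC-27 is an established gastric cancer cell line. RNA-seq of polyadenylated RNA was carried out on 2 libraries of control cells, given as wild type in the labels, and on 2 libraries of RUNX3 KO cells, grown in the same medium with fetal bovine serum. RUNX3 is a DNA-binding transcription factor of the RUNX family, and the study knocked it out with Cas9 and a guide RNA carried on a lentiviral CRISPR vector, followed by single-cell cloning. The comparison asks which transcripts differ between RUNX3 KO and control cells. The paper's methods describe puromycin selection and cloning for the RUNX3 KO cells and do not describe them for the control. Loss of RUNX3 and effects of selection or cloning therefore cannot be told apart. How many clones the RUNX3 KO libraries came from, and whether the libraries of a group came from separate cultures, is not given in the sources used here, so p-values measure only the spread between these libraries, which may be technical.

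A core protein becomes a heparan sulfate proteoglycan when long sulfated sugar chains are built on it in the Golgi. Syndecans cross the plasma membrane and connect through their short cytoplasmic tails to the actin cytoskeleton, glypicans are held on the outer leaflet by a glycosylphosphatidylinositol anchor, and perlecan is secreted into basement membranes. Their chains bind growth factors of the FGF, WNT and other families, present them to receptors and hold them in the matrix.

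Gene counts per library were 11731401 and 11733407 in the control and 11898276 and 12110876 in RUNX3 KO. The targeted gene, RUNX3, was counted 351 and 308 times in the control libraries and 225 and 185 times in RUNX3 KO. This gave a log2 fold change of -0.70 with an SE of 0.0961 (adjusted p = 1.43e-09, edgeR quasi-likelihood test with Benjamini-Hochberg adjustment). RUNX3 RNA was thus lower but still present in the RUNX3 KO libraries, and counts over the whole gene do not read the cut site. Without RUNX3 KO replicate 2 its log2 fold change was -0.55 with an adjusted p of 0.0649. Of the genes that mark differentiated gastric epithelium, MUC5AC, TFF1, GKN1 and PGC were at 0 in every library and MUC6 had 1 count in all. EPCAM, the general epithelial adhesion molecule, had 1 count in each control library and 0 in RUNX3 KO, and KRT19 was at 0 throughout. VIM (vimentin), the intermediate filament of mesenchymal cells, had 57834 and 57486 counts in the control and 33828 and 35307 in RUNX3 KO.

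Of the 9 core proteins tested, 3 fell (SDC2, SDC3 and GPC2) and 2 rose (GPC1 and GPC4) in RUNX3 KO at an adjusted p under 0.05, and 4 did not pass (SDC1, SDC4, GPC6 and HSPG2). Of all tested genes 48.9% passed, 24.4% lower and 24.5% higher, so in this fit the share of core proteins that passed was close to that background. The same 3 lower and 2 higher core proteins passed with DESeq2, with no filter on low counts and without RUNX3 KO replicate 1, where 28.5%, 27.8% and 22.8% of all tested genes passed, so the comparison with the background depends on the fit. None reached a 2-fold change, which 6.12% of all tested genes did together with an unadjusted p of at most 0.05. The median absolute log2 fold change was 0.27 over the tested core proteins and 0.19 over all tested genes. In bulk RNA, fewer cells with a transcript and less of it per cell cannot be told apart.

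SDC3, a syndecan best known from the nervous system, had the largest fall among the 9 tested. Its counts were 408 and 396 in the control and 223 and 258 in RUNX3 KO. Its level went from 34.1 ± 0.709 to 20.2 ± 1.81 CPM (counts scaled to edgeR's TMM-normalised library sizes, mean ± SD, n = 2), which was 1.69-fold lower (log2 fold change -0.75, SE 0.0858, adjusted p = 1.66e-12, edgeR quasi-likelihood test). Both RUNX3 KO libraries lay well below both control libraries. Ordered by log2 fold change among all tested genes, SDC3 stood at percentile 6.36.

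SDC2, the syndecan typical of fibroblasts and other mesenchymal cells, had 1065 and 1022 counts in the control and 806 and 770 in RUNX3 KO. It fell from 88.4 ± 2.55 to 66.2 ± 3.0 CPM, 1.34-fold (log2 fold change -0.42, SE 0.0516, adjusted p = 3.49e-11, edgeR quasi-likelihood test), with no overlap between the groups. Its percentile among all tested genes was 14.6.

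SDC1, the main syndecan of epithelia and plasma cells, had 1348 and 1313 counts in the control and 1347 and 1391 in RUNX3 KO. The groups overlapped, and the log2 fold change was 0.03 with a 95% interval of -0.06 to 0.11 (adjusted p = 0.624). SDC4, which joins integrins in focal adhesions, had 364 and 347 counts in the control and 371 and 388 in RUNX3 KO. At 30.1 ± 1.01 and 31.9 ± 0.594 CPM its groups did not overlap, but the log2 fold change of 0.08 (95% interval -0.08 to 0.24) did not pass the test (adjusted p = 0.414).

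Within a library, the ratio of 2 counts does not depend on scaling. SDC3 counts were 30.3% and 30.2% of SDC1 counts in the control and 16.6% and 18.5% in RUNX3 KO. SDC2 counts were 79.0% and 77.8% of SDC1 counts in the control and 59.8% and 55.4% in RUNX3 KO. SDC4 counts were 27.0% and 26.4% of SDC1 counts in the control and 27.5% and 27.9% in RUNX3 KO. The syndecans therefore moved unequally: SDC2 and SDC3 each lost ground to SDC1, whereas the SDC4 ratio lay between 26.4% and 27.9% in all 4 libraries.

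**Figure D1:**
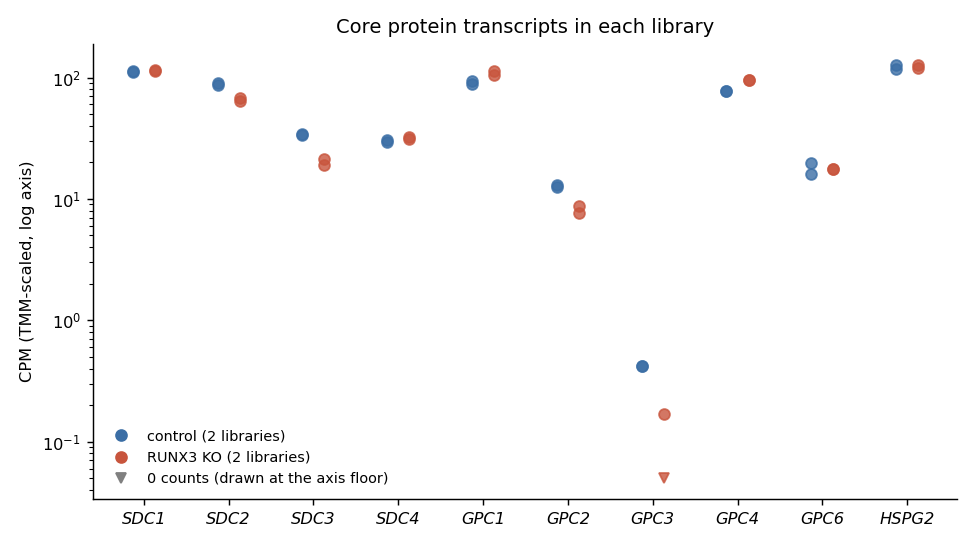
Level of each core protein transcript in each of the 4 libraries, in CPM on a log axis, with control libraries in blue and RUNX3 KO libraries in red. SDC3 sits at 33.6 to 34.6 CPM in the control and 18.9 to 21.5 CPM in RUNX3 KO, and the triangle marks the RUNX3 KO library in which GPC3 had 0 counts.

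Among the glypicans, GPC2, known from the developing nervous system and from neuroblastoma, fell. Its counts were 148 and 154 in the control and 90 and 105 in RUNX3 KO. The level went from 12.8 ± 0.363 to 8.18 ± 0.784 CPM, 1.56-fold lower (log2 fold change -0.64, SE 0.134, adjusted p = 2.77e-05, edgeR quasi-likelihood test). The groups were apart, at percentile 8.07 of all tested genes. The gene next to it, GAL3ST4, a galactose sulfotransferase on the same strand, 988 bases away, had 189 and 218 counts in the control and 131 and 147 in RUNX3 KO. GAL3ST4 fell as well, by 0.56 on the log2 scale (SE 0.115, adjusted p = 2.12e-05), and GPC2 counts were 78.3% and 70.6% of GAL3ST4 counts in the control and 68.7% and 71.4% in RUNX3 KO. The ratio of the pair thus overlapped between the groups, and the part of either gene in the other's counts was not tested.

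GPC4 and GPC1 were the core proteins that rose. GPC4, a glypican with roles in WNT signalling, had 914 and 916 counts in the control and 1132 and 1140 in RUNX3 KO. It rose from 77.5 ± 0.143 to 95.4 ± 0.767 CPM, 1.23-fold (log2 fold change 0.30, SE 0.0484, adjusted p = 1.42e-07, edgeR quasi-likelihood test), at percentile 86.7 of all tested genes. Both control libraries were nearly equal, as were both RUNX3 KO libraries, so the gap was wide against the spread.

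GPC1, a glypican expressed in many adult tissues, had 1110 and 1037 counts in the control and 1236 and 1369 in RUNX3 KO. Its rise from 90.9 ± 4.35 to 109 ± 6.47 CPM was 1.2-fold (log2 fold change 0.27, SE 0.0468, adjusted p = 1.06e-06, edgeR quasi-likelihood test). The groups did not overlap. The SD within each was larger than for GPC4, whereas the SE from the fit, 0.0468, was close to the 0.0484 of GPC4. Without RUNX3 KO replicate 2, GPC1 no longer passed (log2 fold change 0.20, adjusted p = 0.101). GPC4 counts were 82.3% and 88.3% of GPC1 counts in the control and 91.6% and 83.3% in RUNX3 KO, so that ratio overlapped between the groups. Tested against a change of at least 1.2-fold in place of no change, neither GPC1 (adjusted p = 0.666) nor GPC4 (adjusted p = 0.322) passed, whereas SDC2, SDC3 and GPC2 did.

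GPC6, the neighbour of GPC5 on chromosome 13, had 234 and 189 counts in the control and 208 and 212 in RUNX3 KO. Its control libraries lay further apart than for any other tested glypican relative to their mean, and they enclosed both RUNX3 KO libraries. The log2 fold change was -0.02 with a 95% interval of -0.23 to 0.18 (adjusted p = 0.875). GPC5, a glypican outside the 10, had 1 and 0 counts in the control and 0 and 2 in RUNX3 KO.

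GPC3, the oncofetal glypican used as a marker of liver cancer, had 5 counts in each control library and 2 and 0 in RUNX3 KO. It was near the limit of detection in all 4 libraries and failed the filter on low counts. When all genes were kept, its log2 fold change was -2.20 with an adjusted p of 0.160, so a difference was not detectable at this depth. GPC4 lies 120255 bases from GPC3 on the same strand of the X chromosome. The pair thus held a glypican with at least 914 counts in every library and another with at most 5.

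HSPG2 encodes perlecan, the largest of the core proteins. Its counts were 1503 and 1395 in the control and 1402 and 1535 in RUNX3 KO. At 123 ± 6.43 and 123 ± 6.29 CPM the groups overlapped, and the log2 fold change was 0.01 with a 95% interval of -0.08 to 0.09 (adjusted p = 0.923). The 3′ part of HSPG2 overlaps LDLRAD2 on the opposite strand over 2122 exon bases, and LDLRAD2 had 0 counts in every library.

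**Figure D2:**
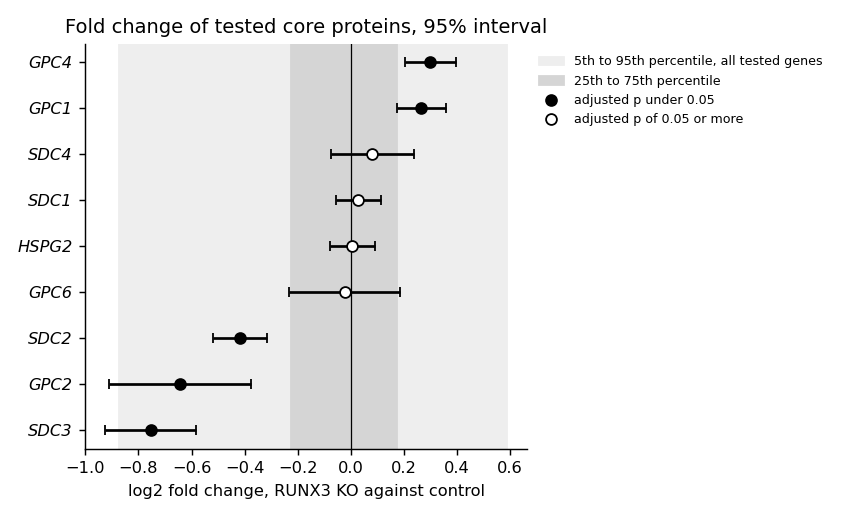
Log2 fold change in RUNX3 KO against control for the 9 tested core proteins with its 95% interval, ordered by size, over grey bands for the spread of all 12967 tested genes. Filled points passed an adjusted p of 0.05, with SDC3 at -0.75, GPC2 at -0.64 and SDC2 at -0.42 to the left and GPC1 at 0.27 and GPC4 at 0.30 to the right.

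Levels of different genes were compared per length, as CPM per kilobase of annotated exon. In the control, SDC1 was highest at 31.2 ± 0.571, followed by SDC2 at 21.6 ± 0.624, GPC4 at 15.6 ± 0.0288 and GPC1 at 13.9 ± 0.666. SDC4 at 11.5 ± 0.386, HSPG2 at 6.78 ± 0.355 and SDC3 at 4.82 ± 0.100 formed the middle of the order. GPC2 at 3.33 ± 0.0947, GPC6 at 2.52 ± 0.378 and GPC3 at 0.129 CPM per kilobase were lowest. In the control, no 2 neighbours in this order overlapped between their libraries.

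In RUNX3 KO the order per length changed at 2 places. SDC1 stayed first at 31.8 ± 0.309 CPM per kilobase, and GPC4 was now second at 19.2 ± 0.155. GPC1 at 16.8 ± 0.992 and SDC2 at 16.2 ± 0.734 followed, and their libraries overlapped, so their order was within the spread. SDC4 at 12.2 ± 0.227, HSPG2 at 6.80 ± 0.347 and SDC3 at 2.86 ± 0.257 kept their ranks. GPC6 at 2.48 ± 0.00111 was above GPC2 at 2.13 ± 0.204, and GPC3 was last at 0.0258 CPM per kilobase. These ranks depend on the length used. With the longest transcript of each gene, SDC2 went from rank 2 to rank 3, just above GPC4, in RUNX3 KO, and GPC2 at 3.21 was above SDC3 at 3.16 and GPC6 at 2.48.

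The summed level of the 4 syndecans per kilobase was 70.4 and 68.0 in the control libraries and 63.0 and 63.1 in RUNX3 KO. The summed level of the 5 glypicans per kilobase was 36.2 and 34.9 in the control and 39.9 and 41.3 in RUNX3 KO. The syndecan sum was lower and the glypican sum higher in both RUNX3 KO libraries, without overlap in either. Over all 10 core proteins the sum was 112 ± 2.96 in the control and 110 ± 1.41 in RUNX3 KO, and the groups overlapped. These sums are descriptions and were not tested. With 2 libraries against 2, an exact two-sided permutation p could not fall below 0.333.

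Shares within a family add up to the whole in each library, so 1 member's fall raises the shares of the others. SDC1 made up 45.1% ± 0.271 of the syndecan sum in the control and 50.4% ± 0.442 in RUNX3 KO. SDC2 went from 31.3% ± 0.142 to 25.7% ± 1.19 and SDC3 from 6.97% ± 0.0244 to 4.53% ± 0.403. The SDC4 share was 16.7% ± 0.153 in the control and 19.3% ± 0.343 in RUNX3 KO, although its own level did not pass the test.

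Within the glypicans, GPC4 held the largest share, 44% ± 1.22 in the control and 47.4% ± 1.55 in RUNX3 KO, and GPC1 followed with 39.2% ± 0.859 and 41.2% ± 1.42. GPC2 went from 9.38% ± 0.509 to 5.24% ± 0.373, and GPC6 from 7.07% ± 0.880 to 6.10% ± 0.148. Which of GPC1 and GPC4 ranked higher depended on the length used: with the longest transcript of each gene in place of all annotated exons, GPC1 was at 24.5 and GPC4 at 15.6 CPM per kilobase in the control.

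**Figure D3:**
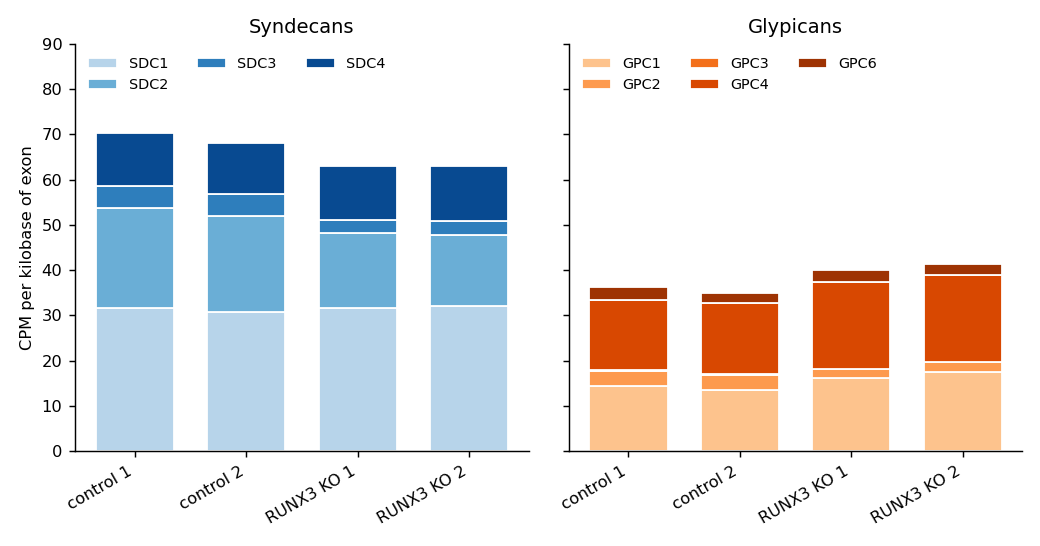
Stacked level of the 4 syndecans and of the 5 glypicans in each library, in CPM per kilobase of exon. The syndecan stack reaches 70.4 and 68.0 in the control and 63.0 and 63.1 in RUNX3 KO, the glypican stack 36.2 and 34.9 in the control and 39.9 and 41.3 in RUNX3 KO.

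Positions of the core protein genes were taken from GENCODE on GRCh37, the assembly that the authors' hg19 build corresponds to. SDC3 lies at chr1:31342313-31381605 on the minus strand, SDC2 at chr8:97506041-97624018 on the plus strand and GPC2 at chr7:99767229-99775004 on the minus strand. GPC1 lies at chr2:241375080-241407493 on the plus strand and GPC4 at chrX:132434131-132549517 on the minus strand. HSPG2 lies on the same chromosome as SDC3 at chr1:22148737-22263803, and SDC1 on that of GPC1 at chr2:20400558-20425194. No core protein shared a neighbourhood with another except GPC3 and GPC4.

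Each core protein was set beside the 20 tested genes on either side of it, 40 in all, or 38 for GPC1 near the end of its chromosome. The median log2 fold change of these neighbours lay between -0.07 (SDC1) and 0.03 (GPC1) for all 10. Around SDC3 it was 0.03, with 2 of 40 neighbours at or below the value of SDC3. Around GPC2 it was -0.03, and 1 of 40 neighbours was at or below GPC2. Around SDC2 it was 0.01, with 4 of 40 at or below SDC2. For the core proteins that rose, 7 of 40 neighbours of GPC4 and 6 of 38 neighbours of GPC1 were at or above the gene. Over all tested genes SDC2, SDC3 and GPC2 stood at percentiles 14.6, 6.36 and 8.07. Few falls as large would therefore be found around most genes, and these counts are no result about the neighbourhoods. GAL3ST4, next to GPC2, fell by 0.56 on the log2 scale, and 22 of the 40 neighbours of GPC2 were lower to some degree. The part of a region in these falls was not tested.

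**Figure D4:**
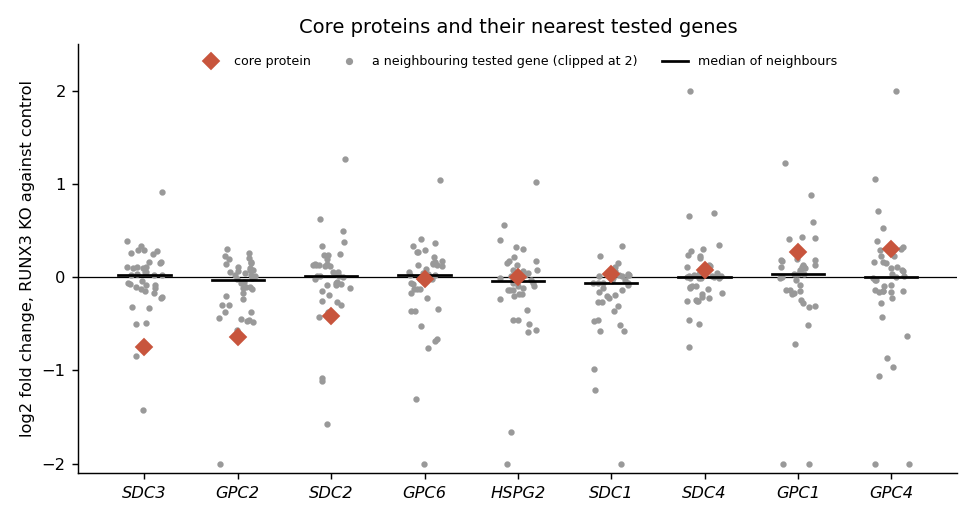
Log2 fold change in RUNX3 KO against control of each tested core protein (red diamond) and of its nearest tested genes (grey points, drawn at the limit where beyond 2 in size), with the neighbours' median as a bar. SDC3 at -0.75, GPC2 at -0.64 and SDC2 at -0.42 lie below medians of 0.03, -0.03 and 0.01.

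Promoter sequence is shown for 4 core proteins because the targeted factor, RUNX3, binds DNA: SDC3 and GPC2, which fell, GPC4, which rose, and SDC1, which did not pass the test. Each is the 250 bases before an annotated start site, read 5′ to 3′ on the gene's strand from GRCh37 at chr1:31381606-31381855 (SDC3), chr7:99775005-99775254 (GPC2), chrX:132549518-132549767 (GPC4) and chr2:20424892-20425141 (SDC1), all on the minus strand. Start sites were those of the GENCODE transcripts, and the letters of these 4 windows were the same as in RefSeq's promoter sequences on GRCh38.p14. Capitals mark the RUNX-type motif TGTGGT or its reverse complement ACCACA.
SDC3: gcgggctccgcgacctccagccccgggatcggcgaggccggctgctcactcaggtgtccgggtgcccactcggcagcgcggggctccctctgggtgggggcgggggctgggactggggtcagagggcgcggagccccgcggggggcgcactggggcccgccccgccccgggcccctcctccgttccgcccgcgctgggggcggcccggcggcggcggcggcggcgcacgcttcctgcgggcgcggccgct
GPC2: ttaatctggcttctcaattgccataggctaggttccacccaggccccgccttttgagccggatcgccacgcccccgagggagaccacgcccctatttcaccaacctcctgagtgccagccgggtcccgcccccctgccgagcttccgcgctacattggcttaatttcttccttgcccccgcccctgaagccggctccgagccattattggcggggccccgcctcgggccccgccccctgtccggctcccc
GPC4: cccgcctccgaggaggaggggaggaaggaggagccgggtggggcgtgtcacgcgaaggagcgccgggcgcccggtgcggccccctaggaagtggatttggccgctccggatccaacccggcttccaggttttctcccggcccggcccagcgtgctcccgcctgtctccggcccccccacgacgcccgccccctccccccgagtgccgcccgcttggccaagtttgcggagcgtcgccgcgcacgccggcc
SDC1: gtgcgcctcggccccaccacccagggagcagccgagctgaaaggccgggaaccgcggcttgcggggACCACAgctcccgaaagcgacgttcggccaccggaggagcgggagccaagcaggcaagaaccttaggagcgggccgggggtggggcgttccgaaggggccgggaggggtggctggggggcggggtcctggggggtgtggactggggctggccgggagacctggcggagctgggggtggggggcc

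Windows of this kind were available for 8 of the 10 core proteins, all but SDC2 and GPC3, and for 8830 tested genes that RefSeq's promoter set also held. TGTGGT or ACCACA was found in 6.83% of the 8830 and in 1 of the 8 core proteins, SDC1, where it began 184 bases before the start site used. That SDC1 window lies within the annotated span of the gene, which has another start further upstream. The variant TGCGGT or ACCGCA was found in 8.17% of the 8830 and in none of the 8. GGGCGG or its reverse complement CCGCCC, the letters of a GC box, was found in 73.0% of all windows and in 7 of the 8, GPC6 being the exception. Windows of SDC3, GPC1 and HSPG2 held 83.6%, 84.0% and 82.8% G and C, that of GPC6 37.6%, and the median of all windows was 66.4%. A match describes letters in these windows and not binding, and its absence says nothing of sites elsewhere.

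The enzymes and partners of the core proteins were described by 12 lists of 107 genes, of which 77 were tested. Of these, 24 fell, 18 rose and 35 did not pass, with a median log2 fold change of -0.02 beside -0.0021 over all tested genes, where 48.9% passed. Genes named here are XYLT1 and MMP14, which passed with at least a 2-fold change and a mean of at least 50 counts. The most highly counted gene of each list is also named. Others were chosen after their values were seen.

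In the linker list, the enzymes that build the short sugar bridge on which a chain is started, 1 of 7 fell and none rose. The gene that fell was XYLT1, the xylosyltransferase that attaches the first sugar to the core protein. It had 540 and 534 counts in the control and 240 and 231 in RUNX3 KO, 2.30-fold lower (log2 fold change -1.20, SE 0.0800, adjusted p = 3.72e-24, edgeR quasi-likelihood test). FAM20B, the kinase that phosphorylates this xylose, was at -0.04 (adjusted p = 0.539). The fall of XYLT1 was larger than that of any core protein tested.

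Among chain polymerases 2 of the 4 tested fell, EXT1 at -0.24 (adjusted p = 6.57e-10) and its partner EXT2 at -0.33 (adjusted p = 4.11e-09). Among chain-modifying enzymes 1 of the 8 tested fell and 4 rose. GLCE, the epimerase that turns glucuronic into iduronic acid, fell from 466 and 460 counts to 239 and 235 (log2 fold change -0.98, adjusted p = 1.91e-18). NDST1, the main N-deacetylase and N-sulfotransferase, rose (log2 fold change 0.23, adjusted p = 4.00e-07), as did the sulfotransferases HS2ST1 at 0.27 and HS6ST2 at 0.39. HS6ST2 lies beside GPC4 among the tested genes of the X chromosome, and any link between their rises was not tested. Without RUNX3 KO replicate 2, HS2ST1 (adjusted p = 0.103) and HS6ST2 (adjusted p = 0.0719) no longer passed, nor did EXT2 (adjusted p = 0.0549), which also failed without RUNX3 KO replicate 1 (adjusted p = 0.0683). HS3ST3A1, the other sulfotransferase that rose, was at 0.38 (adjusted p = 0.0419), and it did not pass with library size alone (adjusted p = 0.0564), upper-quartile scaling (adjusted p = 0.0599), DESeq2 (adjusted p = 0.333) or no filter (adjusted p = 0.212). It also failed without RUNX3 KO replicate 1 (adjusted p = 0.343) or 2 (adjusted p = 0.414), and without control replicate 2 its log2 fold change was 0.12 (adjusted p = 0.624). In the list of precursor supply 2 of 8 fell and none rose. UGP2, which makes UDP-glucose, was at 0.05 (adjusted p = 0.346), and the sulfate transporter SLC26A2 fell by 0.85 on the log2 scale. PAPSS1, which makes the sulfate donor, was at -0.20 (adjusted p = 0.00384) and did not pass with DESeq2 (adjusted p = 0.123) or no filter (adjusted p = 0.0579), nor without control replicate 2 (adjusted p = 0.120) or RUNX3 KO replicate 1 (adjusted p = 0.127) or 2 (adjusted p = 0.197).

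Enzymes that edit chains outside the cell were lower in all 3 tested genes of that list. SULF2, an endosulfatase that removes 6-O-sulfates, had 1589 and 1532 counts in the control and 983 and 1028 in RUNX3 KO (log2 fold change -0.65, adjusted p = 2.41e-23). SULF1, the other endosulfatase, went from 1215 and 1165 to 749 and 711 counts (log2 fold change -0.72, adjusted p = 1.87e-22). SULF1 is also on a list of genes near RUNX3 binding sites that the study set beside expression values of this comparison, so its direction is not independent evidence. HPSE, the heparanase that cuts chains, had 71 and 86 counts in the control and 37 and 60 in RUNX3 KO (log2 fold change -0.71, adjusted p = 0.00129), and it no longer passed with DESeq2 (adjusted p = 0.0913), without the filter on low counts (adjusted p = 0.0835) or without RUNX3 KO replicate 1 (log2 fold change -0.41, adjusted p = 0.216) or 2 (log2 fold change -1.08, adjusted p = 0.0567). In lysosomal breakdown 3 of 8 fell and none rose, GUSB (beta-glucuronidase) among them at -0.47 (adjusted p = 3.0e-15). HGSNAT, another of the 3, did not pass without RUNX3 KO replicate 2 (adjusted p = 0.0545).

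Of 4 other tested proteins that carry such chains, 1 rose and 1 fell. AGRN (agrin), a basement membrane proteoglycan like perlecan, rose from 3068 and 2916 counts to 3985 and 4301 (log2 fold change 0.46, SE 0.0312, adjusted p = 1.90e-23), whereas HSPG2 did not pass. SPOCK2 (testican) was at -0.65 (adjusted p = 0.048) with 19 to 36 counts per library, and its call was lost with DESeq2 (adjusted p = 0.352), edgeR's exact test (adjusted p = 0.0654), limma-voom (adjusted p = 0.0624) and no filter (adjusted p = 0.101), and without control replicate 1 (adjusted p = 0.340) or RUNX3 KO replicate 1 (adjusted p = 0.148) or 2 (adjusted p = 0.259). Among proteins that bind syndecan tails 2 of 7 fell and 4 rose. SDCBP (syntenin), which binds the end of the tail, rose by 0.26 on the log2 scale, EZR (ezrin), which links it to actin, rose by 0.16, and CASK, a scaffold protein, fell by 0.42. TIAM1, the other that fell, went from 547 and 536 counts to 345 and 317 (log2 fold change -0.72), and PRKCA rose by 0.32. EZR did not pass without RUNX3 KO replicate 1 (adjusted p = 0.0655) or replicate 2 (adjusted p = 0.0518), nor CASK without the latter (adjusted p = 0.0569). GIPC1, another that rose, failed with DESeq2 (adjusted p = 0.137) and without RUNX3 KO replicate 1 (adjusted p = 0.0609) or 2 (adjusted p = 0.134).

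Among proteases and other enzymes that release core proteins from the cell, 2 of the 6 tested fell and 2 rose. MMP14, a membrane-bound metalloproteinase that cleaves syndecans, had 1592 and 1478 counts in the control and 746 and 760 in RUNX3 KO (log2 fold change -1.04, SE 0.0482, adjusted p = 1.64e-34, edgeR quasi-likelihood test). Among the 40 neighbours of MMP14, 39 had lower values in RUNX3 KO (median -0.34 on the log2 scale), and 5 were at or below MMP14. ADAM10, another sheddase, rose by 0.32 on the log2 scale, and 31 of its 40 neighbours were higher, with a median of 0.24 and 16 at or above ADAM10. FURIN, the other gene that rose, was at 0.52, below the neighbours' median of 0.67, with 37 of 40 neighbours higher and 29 at or above FURIN. The part of these neighbourhoods in the values of MMP14, ADAM10 and FURIN was not tested. NOTUM, the other gene that fell, was at -0.18 (adjusted p = 0.0319) and did not pass with DESeq2 (adjusted p = 0.273), without the filter on low counts (adjusted p = 0.0635) or without any 1 of the 4 libraries (adjusted p = 0.0738 to 0.174).

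Among 14 heparin-binding ligands 6 were tested, of which 2 fell and 4 rose. FGF9 went from 70 and 72 counts to 13 and 11, 5.92-fold lower (log2 fold change -2.57, adjusted p = 3.29e-14). HGF (hepatocyte growth factor) had 1 and 2 counts in the control and 20 and 18 in RUNX3 KO (adjusted p = 1.86e-07), too few in the control for a fold change to be given. MDK (midkine), the ligand with the most counts, rose by 0.13 (adjusted p = 0.0112) but did not pass with DESeq2 (adjusted p = 0.178), without control replicate 2 (adjusted p = 0.0661) or without RUNX3 KO replicate 1 (adjusted p = 0.175) or 2 (adjusted p = 0.0647), and it also failed with no filter on low counts (adjusted p = 0.0642). FGF18 and HBEGF, which rose, did not pass with DESeq2 (adjusted p = 0.0782 and 0.0664) or without RUNX3 KO replicate 2 (adjusted p = 0.0950 and 0.0726), so that HGF was the 1 ligand still higher under either. FGF18 also failed without control replicate 2 (adjusted p = 0.0692) and without RUNX3 KO replicate 1 (adjusted p = 0.149). VEGFA, the other ligand that fell, did not pass without RUNX3 KO replicate 1 (adjusted p = 0.0768) or 2 (adjusted p = 0.0633). Of 3 tested FGF receptors FGFR2 rose (log2 fold change 0.51), FGFR3 was at -0.05 (adjusted p = 0.380) and 1 fell. That gene, FGFR4, was at -0.13 (adjusted p = 0.0231) and did not pass with DESeq2 (adjusted p = 0.244) or no filter (adjusted p = 0.0731), nor without control replicate 1 (adjusted p = 0.186) or RUNX3 KO replicate 1 (adjusted p = 0.205) or 2 (adjusted p = 0.133). Enzymes of chondroitin sulfate, the other chain that syndecans and perlecan can carry, fell in 4 and rose in 2 of 13, with CHST3 at 0.05 (adjusted p = 0.411). With DESeq2 the calls of CHST11 (adjusted p = 0.0708), CSGALNACT2 (adjusted p = 0.0519) and CHST13 (adjusted p = 0.0556) were lost, and all 3 were lost without RUNX3 KO replicate 2 as well (adjusted p = 0.219, 0.0615 and 0.0852), which left 2 lower and 1 higher. CHST11 and CHST13 also failed without RUNX3 KO replicate 1 (adjusted p = 0.174 and 0.0857), and CHST11 without control replicate 2 (adjusted p = 0.126) and with no filter (adjusted p = 0.0642). CHSY1, which rose by 0.58, had neighbours with a median of 0.66 on the log2 scale.

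**Figure D5:**
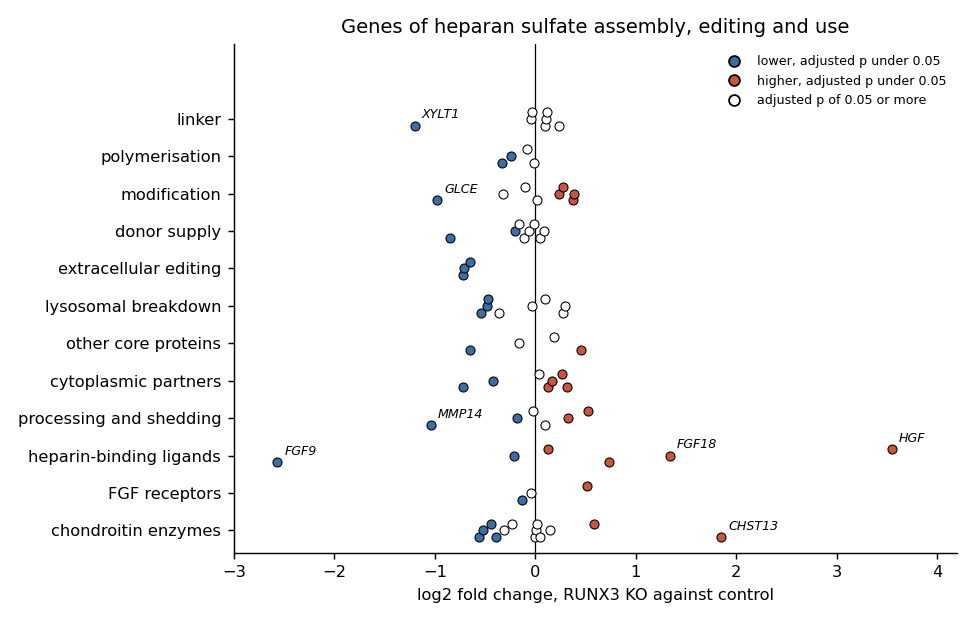
Log2 fold change in RUNX3 KO against control of the 77 tested genes in 12 lists around the core proteins, 1 point a gene, filled where an adjusted p of 0.05 was passed. XYLT1 at -1.20, MMP14 at -1.04 and FGF9 at -2.57 lie furthest to the left, and the points of HGF and CHST13 on the right rest on control counts of 1 and 2 and of 3 and 7.

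Cell type markers moved with the groups beside these results. All 4 tested genes of 5 mesenchymal markers fell (VIM, FN1, THY1 and PDGFRB), with summed counts, nearly all of them VIM, of 59254 and 58875 in the control and 34867 and 36379 in RUNX3 KO. Both tested genes of 5 epithelial markers rose, with summed counts of 35 and 33 in the control and 104 and 127 in RUNX3 KO, where KRT8 held 72 and 81 of them. EPCAM and KRT19 stayed at 0 or 1. None of 4 endothelial markers was tested, with summed counts of at most 4, and the 5 leukocyte markers summed to at most 23. The part of these differences in the changes of the core proteins was not tested.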

How the data were processed

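RNA-seq reads of 2 control and 2 RUNX3 KO libraries of HGC-27 cells were processed by the authors, who deposited raw counts of reads per gene symbol for each library, with no normalization. The submitters' processing notes name bcl2fastq, HISAT2 2.1.0, HTSeq and hg19, whereas the paper's methods name STAR, featureCounts and GENCODE. The kit marks strand, but whether counting used it is not given in the sources used here. Each table held 25564 rows, of which 5 named no gene. These rows, which were left out, held 27.8% and 28.1% of the total in the control libraries and 26.2% and 25.9% in those of RUNX3 KO.

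Groups were taken from the labels. The fit used edgeR 4.0.16 under R 4.3.3. The filter was filterByExpr with its minimum count at 10 and its minimum total at 15, libraries were scaled by TMM, and RUNX3 KO was compared with control by the quasi-likelihood test (glmQLFit, glmQLFTest) with Benjamini-Hochberg adjustment over all 12967 tested genes at 0.05. SE and 95% intervals were derived from the F statistic. The biological coefficient of variation was 1.45%. Replicates of a group differed by slightly more than counting noise (chi-square per degree of freedom 1.22 in the control over 13692 genes and 1.18 in RUNX3 KO over 13510 genes). Each was counted as a sample because the labels give it as a replicate, and this spread does not show whether replicates were separate cultures. CPM per kilobase used the union of exons in GENCODE release 44 lifted to GRCh37, and 94.2% of tested genes had a position. Counts were also simulated, with the same dispersion for every gene and few of the 12920 tested genes changed. Of 98 genes changed by 0.5 and 100 changed by 1 on the log2 scale, 74.5% and 89% were recovered, with 7 false calls. This does not measure false calls between cultures or clones, nor where as many genes change as were called here.

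Genes named beside the core proteins were RUNX3, each gene of the 12 lists with at least a 2-fold change at an adjusted p under 0.05 and a mean of at least 50 counts, and the gene with the highest mean count in each list. All other genes named were chosen after their values were seen. The core proteins, lists and tests were chosen with earlier results of these data known. Alternatives were other scalings, filters and tests, a replicate block, and leaving out each library. A newer quasi-likelihood method and a test against a 1.2-fold change were added after seeing the data.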

Additional observations from a re-analysis of the deposited data

How the results depend on the processing

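SDC2, SDC3 and GPC2 passed in the same direction under every alternative run, with adjusted p of at most 0.0333, 0.0212 and 0.0472 when a library was left out. Of 99 values of the core proteins under alternatives other than leaving out a library, 94 kept direction and side of the threshold. HSPG2, which did not pass, turned to -0.0140 with library size alone, to -0.0148 with upper-quartile scaling and to -0.000571 with at least 10 counts in every library. Leaving out a library moved HSPG2 from -0.0487 to 0.0608, GPC6 from -0.17 to 0.14, CHST3 from -0.0018 to 0.0931 and RUNX3 from -0.86 to -0.55. Of 514 such values of 47 genes, RUNX3 and those of the lists that were followed singly, 43 lost the threshold and none reversed.

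Against a 1.2-fold change, 0 core proteins passed as higher, 15 genes of the lists as lower and 9 as higher, and of all genes 1474 as lower and 912 as higher (38.2% higher, against 50.2%). DESeq2 called 1863 genes lower and 1829 higher, and library size alone shifted the median log2 fold change to -0.02. With a library left out, 3 core proteins fell and 1 to 2 rose, 13 to 23 genes of the lists fell and 9 to 19 rose, and 1378 to 2806 of all genes fell and 1285 to 2745 rose. Each of these fits leaves a lone library in 1 group, taken to vary like those of the other. The lowest counts came without RUNX3 KO replicate 2, and the cause was not tested. With the longest transcript as length, the summed CPM per kilobase in control and RUNX3 KO was 77.8 and 70.3 for the syndecans, 47.8 and 54.3 for the glypicans and 134.2 and 133.2 for all 10. Same-numbered replicates did not deviate together (correlation -0.00507 over 10869 genes), so the numbers give no pairing. A replicate block called 3143 genes lower and 3143 higher and left the calls of the core proteins as they were. At this depth a gene such as GPC3, with at most 5 counts, could not be compared.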
